A study of Mus musculus with 6 samples.

Results

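The matrix metalloproteases (Mmp genes), the ADAMTS proteases and the tissue inhibitors of metalloproteases (Timp genes) were followed in single-cell transcriptomes of mouse skin. Members were taken by symbol from the gene table: symbols that start with Mmp and a number, and symbols made of Adamts or Timp and a number alone. This gave 45 of 32285 genes, with 22 Mmp, 19 Adamts and 4 Timp genes.

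Matrix metalloproteases are zinc enzymes that cut collagens, elastin and other matrix proteins outside the cell, and most are secreted or held at the membrane as inactive precursors. ADAMTS proteases carry thrombospondin repeats; some trim procollagens and others cut the proteoglycans aggrecan and versican. TIMP proteins block the active site of metalloproteases and are made by the same connective tissues, so that in skin the balance of enzyme and inhibitor is set by fibroblasts, epidermis, vessels and infiltrating leukocytes together.

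Balb/c mice formed both groups, and the labels describe all 6 libraries as epicutaneously sensitized skin, taken 2 days after a 10 day protocol and digested with enzymes. The EC-OVA group (treatment label OVA-sensitized) and the EC-SAL group (treatment label control) held 3 libraries each (n = 3 per group throughout), and no genetic change is named for either. Since the labels do not say whether the replicates came from separate mice, the p-values measure the spread of libraries only, and that spread may be technical. The labels give the cell type as CD4, whereas lymphoid cells were 265 of 10972 kept cells in EC-OVA and 150 of 13460 in EC-SAL, and keratinocyte-like and fibroblast-like cells were the largest classes, so the libraries are treated as skin suspensions.

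The EC-OVA libraries held 3405 to 3897 kept cells and 21743490 to 22972651 UMIs (unique molecular identifiers, each a counted transcript), and the EC-SAL libraries 4108 to 4994 cells and 25007064 to 28049562 UMIs. Cells were clustered without the members and named from marker lists, so the members do not define the classes. Fibroblast-like cells numbered 3258 in EC-OVA and 2868 in EC-SAL, keratinocyte-like cells 2397 and 5301, macrophage- and monocyte-like cells 763 and 504, and vascular endothelial-like cells 787 and 728. Levels are CPM, the UMIs of a gene for every 1000000 UMIs of that class in that library. The chemistry counts 3' ends, so a level does not grow with transcript length, but capture can differ between genes. Changes are log2 fold changes of EC-OVA over EC-SAL with their standard error (SE), and a member is called at an adjusted p under 0.05 in edgeR's quasi-likelihood test, with p-values adjusted by Benjamini-Hochberg over all genes tested in a class.

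Of the 45 members, 36 had over 50 UMIs in the kept cells, 6 had between 1 and 50 (Mmp20, Mmp1b, Adamts16, Mmp8, Adamts13 and Adamts19) and 3 had none (Mmp7, Mmp21 and Mmp24). Low-count filters left 35 members tested in at least 1 class. All members had coordinates in GENCODE release M21 (GRCm38). On chromosome 9, a run of 9 Mmp genes lay between 7272514 and 7699585, and it holds Mmp13 (7272514 to 7283331), Mmp12 (7344381 to 7369499), Mmp3 (7445822 to 7455975) and Mmp10 (7502352 to 7510240). Timp1 lies on chromosome X (20870166 to 20874735), inside the gene Syn1 of the opposite strand.

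The 3 enzymes of that run with over 1000 UMIs, the stromelysins Mmp3 and Mmp10 and the collagenase Mmp13, were read from a few keratinocyte and fibroblast clusters, and Timp1 carried the widest change after OVA. The 250 bases upstream of their starts are given below from RefSeq (GRCm38.p6), 5′ to 3′ on the plus strand. They lie at chr9:7445572-7445821 for Mmp3, chr9:7502092-7502341 for Mmp10, chr9:7272264-7272513 for Mmp13 and chrX:20869916-20870165 for Timp1. Capitals mark TGAGTCA or its reverse complement TGACTCA, the letters of an AP-1 element, and both strands were searched.
Mmp3: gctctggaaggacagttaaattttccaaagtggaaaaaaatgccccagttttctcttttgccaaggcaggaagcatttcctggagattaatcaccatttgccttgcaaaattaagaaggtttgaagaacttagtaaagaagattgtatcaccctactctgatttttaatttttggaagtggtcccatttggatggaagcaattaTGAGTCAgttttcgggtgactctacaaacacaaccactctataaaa
Mmp10: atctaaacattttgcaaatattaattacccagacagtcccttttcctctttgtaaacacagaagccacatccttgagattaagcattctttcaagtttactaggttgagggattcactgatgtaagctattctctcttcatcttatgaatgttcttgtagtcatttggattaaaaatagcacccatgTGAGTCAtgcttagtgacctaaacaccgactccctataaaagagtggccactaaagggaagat
Mmp13: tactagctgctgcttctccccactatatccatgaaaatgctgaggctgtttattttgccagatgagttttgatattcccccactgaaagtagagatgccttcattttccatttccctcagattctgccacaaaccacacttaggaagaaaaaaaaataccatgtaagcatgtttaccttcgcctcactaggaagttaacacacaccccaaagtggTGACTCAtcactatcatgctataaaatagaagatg
Timp1: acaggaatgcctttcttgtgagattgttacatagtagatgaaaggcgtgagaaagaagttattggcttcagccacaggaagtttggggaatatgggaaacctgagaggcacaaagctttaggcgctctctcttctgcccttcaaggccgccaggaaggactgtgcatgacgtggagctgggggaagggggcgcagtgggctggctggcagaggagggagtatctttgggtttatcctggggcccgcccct
The motif stood once in each of the 3 protease windows, 46 to 40 bases before the start in Mmp3, 63 to 57 in Mmp10 and 35 to 29 in Mmp13, and these letters are not in the Timp1 window. Among all promoter windows of this length 4.46% (1466 of 32851) held it, and among those of the members 17.6% (6 of 34), which belong to Mmp3, Mmp10, Mmp12, Mmp13, Mmp1b and Mmp7. All 6 genes lie on chromosome 9. A match is a description of the letters and no measure of binding.

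Fibroblast-like cells were the main source of the families. They held 60.6 ± 1.38% of all member UMIs in EC-OVA and 46.0 ± 0.844% in EC-SAL (SD). Of the 36 members with over 50 UMIs, 11 had their highest mean level in fibroblast-like cells, 6 in tenocyte-like cells, 5 in pericyte- and smooth muscle-like cells, 4 in Schwann-like cells, 3 in macrophage- and monocyte-like cells, 2 each in keratinocyte-like, chondrocyte-like and vascular endothelial-like cells, and 1 in dendritic-like cells. Classes with too few cells in some library (neutrophil-like, basophil- and mast-like, skeletal muscle-like and melanocyte-like) were left out of this ranking. The unnamed cells were left out too, so the dendritic place of Mmp25 and the macrophage place of Mmp12 hold among named classes only. The macrophage place of Mmp9 rests on 1 cell, described with that gene. Other places are also unsure. Mmp28 was placed in Schwann-like cells at 4.34 CPM in EC-OVA and 3.30 CPM in EC-SAL, above the second class in 2 of 6 libraries. The highest class led in 3 of 6 libraries for Adamts15 and Mmp9, and in 4 of 6 for Mmp12, Adamts7, Adamts10 and Adamts17. Summed over the family, Mmp genes reached 2219 ± 82.9 CPM in EC-OVA and 2075 ± 70.8 CPM in EC-SAL in fibroblast-like cells. Adamts genes were highest in pericyte- and smooth muscle-like cells, with a sum of 3221 ± 227 CPM in EC-OVA and 4048 ± 219.6 CPM in EC-SAL. Timp genes were highest in tenocyte-like cells, with 4862 ± 166 CPM in EC-OVA and 4169 ± 123 CPM in EC-SAL. The tenocyte-like class depends on the clustering. At resolution 0.6 (1.0 in the main clustering) it was absent, and a chondrocyte-like cluster of 3081 cells was led by Cytl1, Angptl7 and Chad. The 3 families thus had different leading classes, stroma for enzymes of the Mmp group, vessel wall for Adamts and tendon- or cartilage-like stroma for the inhibitors.

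**Figure D1:**
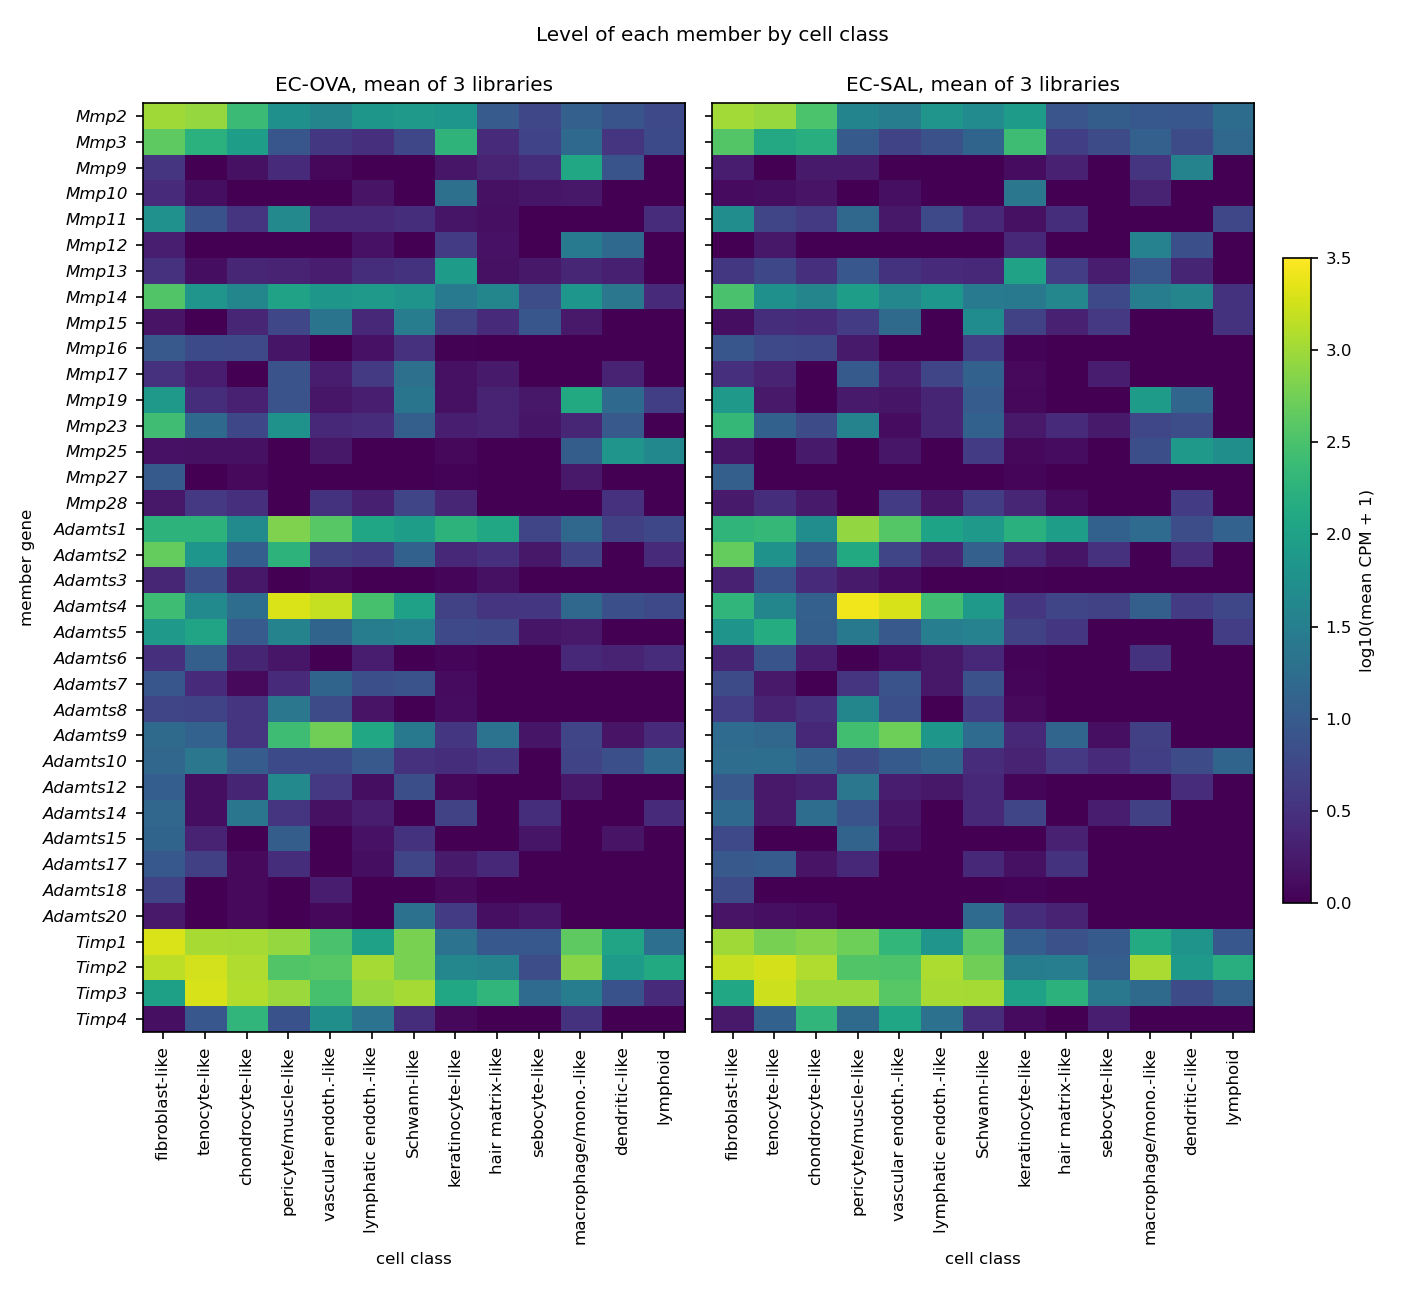
Mean level of the 36 members with over 50 UMIs (rows) in 13 classes (columns), as log10 of CPM plus 1, with EC-OVA in the left panel and EC-SAL in the right. Timp2, Timp3, Timp1 and Mmp2 reach high levels in stromal columns, Adamts4 in the vessel columns, and Mmp13 passes 20 CPM in the keratinocyte-like column alone.

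Timp1, an inhibitor of most secreted metalloproteases, was the member that rose in most classes. In fibroblast-like cells it had 2110.0, 1997 and 1878 CPM in EC-OVA libraries 1 to 3, against 995, 1064 and 958 CPM in EC-SAL libraries 1 to 3. Every EC-OVA library lay above every EC-SAL library, with means of 1995 ± 116 and 1006 ± 53.6 CPM (SD), a log2 fold change of 1.01 ± 0.07 (SE) and an adjusted p of 1.01e-05 (edgeR). In this class 7 of 28 members tested were called, 6 higher and 1 lower, beside 8.39% of all genes tested (4.98% higher, 3.41% lower), a larger share than that background. The median log2 fold change was 0.11 over the members tested and 0.0073 over all genes.

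Outside fibroblasts the same direction was called in 6 further classes. In macrophage- and monocyte-like cells Timp1 had 378, 385 and 529 CPM in EC-OVA libraries, against 159, 116 and 132 CPM in EC-SAL libraries (log2 1.64 ± 0.18, adjusted p 1.66e-05, edgeR). In tenocyte-like cells it had 1000.3, 1222 and 1071 CPM in EC-OVA, against 554, 617 and 651 CPM in EC-SAL (log2 0.87 ± 0.10, adjusted p 0.00039). Both pairs of groups were apart without overlap. In pericyte- and smooth muscle-like cells the values were 840.0, 802 and 1035 CPM in EC-OVA and 566, 533 and 487 CPM in EC-SAL (log2 0.72 ± 0.12, adjusted p 0.00084). Chondrocyte-like cells had 1085, 966 and 1184 CPM in EC-OVA, against 678, 821 and 709 CPM in EC-SAL (log2 0.57 ± 0.10, adjusted p 0.0091), and vascular endothelial-like cells 339.7, 259 and 336 CPM in EC-OVA, against 209, 186 and 223 CPM in EC-SAL (log2 0.57 ± 0.11, adjusted p 0.0098). These too did not overlap. The vascular call was lost without EC-OVA library 3 or EC-SAL library 2 (adjusted p up to 0.0765) and with the same mix of clusters in both groups (log2 0.44, adjusted p 0.0997).

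Keratinocyte-like cells carried little Timp1, with 24.1, 17.8 and 19.6 CPM in EC-OVA and 9.39, 12.5 and 8.4 CPM in EC-SAL (log2 1.04 ± 0.15, adjusted p 0.0084). The summed level of 10 fibroblast markers in these cells was 149 to 253 CPM in EC-OVA and 146 to 166 CPM in EC-SAL, against 50600 to 54749 and 54366 to 54525 CPM in fibroblast-like cells, and the part of free RNA in the Timp1 value was not tested. With the mix of keratinocyte clusters held the same in both groups the call was lost (log2 0.69, adjusted p 0.213). Timp1 was not called in Schwann-like cells (632 ± 36.7 CPM in EC-OVA, 396 ± 87.5 CPM in EC-SAL, adjusted p 0.298), dendritic-like cells (109 ± 36.0 and 64.7 ± 20 CPM, adjusted p 0.134) or lymphatic endothelial-like cells (99.5 ± 16.0 and 66.2 ± 5.68 CPM, adjusted p 0.206), where its means were also higher in EC-OVA.

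**Figure D2:**
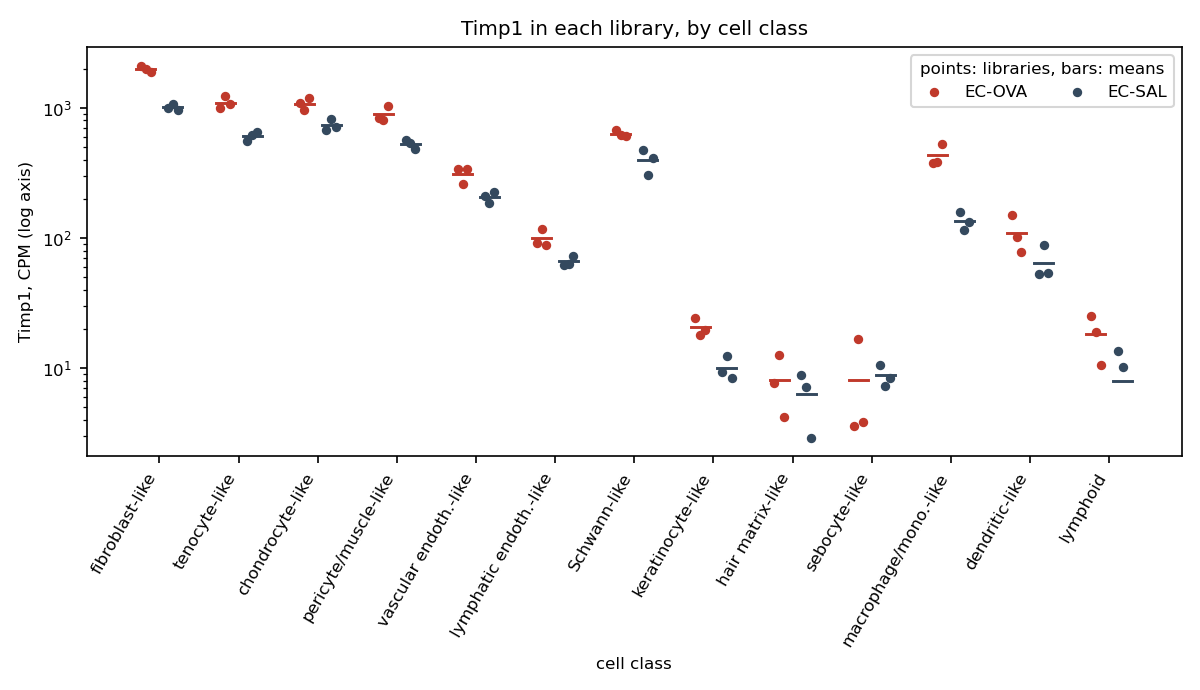
Timp1 level in CPM on a log axis, 1 point per library, with EC-OVA left of EC-SAL in each class. In fibroblast-like cells the EC-OVA points lie between 1878 and 2110.0 CPM and the EC-SAL points between 958 and 1064 CPM; 1 EC-SAL library with 0 Timp1 UMIs in lymphoid cells cannot be drawn on the log axis.

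The size of the Timp1 change differed between classes in a direct test of class by treatment. Fibroblast-like minus macrophage- and monocyte-like gave a log2 difference of -0.67 ± 0.16 (adjusted p 0.0032, edgeR), so the rise was larger in macrophages. Fibroblast-like minus vascular endothelial-like gave 0.41 ± 0.10 (adjusted p 0.016), a larger rise in fibroblasts. With the same mix of clusters in both groups the macrophage difference was -0.070 (with doublets kept -0.45, adjusted p 0.156) and the vascular one 0.45 (adjusted p 0.017). The calls of both were lost when single libraries were left out, EC-OVA library 3, EC-SAL library 2 or EC-SAL library 3 for macrophages (log2 -0.84 to -0.46, adjusted p 0.0023 to 0.195) and EC-OVA library 2, EC-SAL library 1 or EC-SAL library 3 for vessels (log2 0.30 to 0.54, adjusted p 0.0016 to 0.129).

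Within fibroblast-like cells, Timp1 was highest in the cluster led by Ptx3 and Mfap4, with 3170.2, 3000.1 and 2774 CPM in EC-OVA libraries, against 1489, 1449 and 1488 CPM in EC-SAL libraries. It was called there and in the cluster led by Cpz and Rspo1, which had 1223 ± 95.5 CPM in EC-OVA and 733 ± 137 CPM in EC-SAL. The cluster led by Coch, Tnmd and Lrrc15 had 669.8 ± 146 CPM in EC-OVA and 722 ± 20.3 CPM in EC-SAL and was not called. The share of genes called was 9.09% in the Ptx3 cluster, 0.789% in the Cpz cluster and 1.26% in the Coch cluster. No member was called in the Coch cluster (5 of 21 tested with an unadjusted p under 0.05) or in the clusters led by Notum (0 of 12) and by Apod (1 of 8), where 0.141% and 0% of all genes were called. In the Ptx3 cluster 5 of 23 members tested were called, Timp1, Mmp23, Adamts4, Adamts15 and Mmp14, all higher. There Adamts15 lost its call without EC-OVA library 3, EC-SAL library 2 or 3 (adjusted p up to 0.0824) and Mmp14 without EC-OVA library 3 or any 1 EC-SAL library (up to 0.0922). In the Cpz cluster Timp1 alone was called, and its call was lost without EC-SAL library 3 (adjusted p 0.0649).

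The sum of 17 genes known to rise with tissue dissociation is given beside these changes. In fibroblast-like cells it was 10915 to 12944 CPM in EC-OVA and 14274 to 15415 CPM in EC-SAL, with 7 of 17 genes called lower (Fos, Junb, Atf3 and Jun among them, log2 -0.50 to -0.35) and 1 higher. In macrophage- and monocyte-like cells it was 6097 to 7283 CPM in EC-OVA and 8922 to 9934 CPM in EC-SAL. Its part in the changes of members was not tested.

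Timp2, an inhibitor that also takes part in activating pro-Mmp2 at the cell surface, was called in keratinocyte-like and macrophage- and monocyte-like cells, in opposite directions. It was highest in tenocyte-like cells, with 1778, 1713 and 1903 CPM in EC-OVA and 1849, 1831 and 1889 CPM in EC-SAL. In fibroblast-like cells it had 1414, 1357 and 1428 CPM in EC-OVA, against 1589, 1545 and 1608 CPM in EC-SAL, lower in every EC-OVA library but not called (log2 -0.16 ± 0.06, adjusted p 0.124). Keratinocyte-like cells had 44.7, 39.4 and 38.0 CPM in EC-OVA and 30.4, 28.1 and 26.6 CPM in EC-SAL, where it rose (log2 0.53 ± 0.07, adjusted p 0.0064). In keratinocyte-like cells 4 of 19 members tested were called, 3 higher and 1 lower, beside 2.97% of all genes (2.07% higher, 0.902% lower). With the same mix of keratinocyte clusters Timp2 was at 0.036 and not called, and the call was also lost at resolution 0.6 (log2 0.32, adjusted p 0.158).

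In macrophage- and monocyte-like cells Timp2 had 693, 635 and 915 CPM in EC-OVA and 1274, 963 and 1169 CPM in EC-SAL (log2 -0.63 ± 0.15, adjusted p 0.0099). The groups did not overlap, and Timp2 was 1 of 3 called among 4 members tested there, where 9.01% of all genes were called. The makeup of this class differed: the cluster led by Ly6c2, in which Timp2 was low (128 ± 3.52 CPM in EC-OVA, 105 ± 93.2 CPM in EC-SAL), held 154 cells in EC-OVA and 18 in EC-SAL. With the same mix of clusters in both groups the Timp2 change was -0.071 and no longer called, while Timp1 kept its call (log2 1.02, adjusted p 0.0061). The Timp2 call was also lost without EC-SAL library 1 or EC-SAL library 3 (adjusted p up to 0.0767).

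Timp3, which binds to the matrix and also inhibits several ADAMTS enzymes, had its highest levels in tenocyte-like cells (1891, 1966 and 2018 CPM in EC-OVA, 1729, 1602 and 1751 CPM in EC-SAL). There it was not called (log2 0.23 ± 0.08, adjusted p 0.305), and Timp1 was the 1 called member of 14 tested, beside 0.66% of all genes. In chondrocyte-like cells Timp3 had 1272, 1209.6 and 1238 CPM in EC-OVA and 935, 893 and 968 CPM in EC-SAL, and it rose (log2 0.43 ± 0.08, adjusted p 0.011). With Timp1 this made 2 of 13 members called in chondrocyte-like cells, beside 1.3% of all genes, both higher. Timp1 lost its call there without EC-SAL library 1 or 3 and Timp3 without EC-SAL library 1 or 2 (adjusted p up to 0.0785 and 0.0803).

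In fibroblast-like cells Timp3 fell, with 90.2, 101 and 95 CPM in EC-OVA and 123, 131 and 113 CPM in EC-SAL (log2 -0.33 ± 0.08, adjusted p 0.032). It was the only member called lower in that class. Keratinocyte-like cells had 125, 126 and 121 CPM in EC-OVA and 98.2, 103 and 93.7 CPM in EC-SAL (log2 0.34 ± 0.06, adjusted p 0.016). The cluster led by Krt17 and Lhx2, a hair follicle profile, had 621 ± 81.8 CPM in EC-OVA and 656 ± 42.2 CPM in EC-SAL, and with the same mix of clusters the class value was -0.19. The keratinocyte call was also lost at resolution 0.6 (adjusted p 0.196) and without EC-SAL library 1 or 3 (up to 0.0867). The fibroblast call was lost without EC-OVA library 1, EC-OVA library 3, EC-SAL library 1 or EC-SAL library 2 (adjusted p 0.0062 to 0.126), in DESeq2 (0.12), with the same mix of clusters (0.107) and at resolution 0.6 (0.106).

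Timp4 came mainly from cartilage and vessels, with 72.6% of its UMIs in EC-OVA and 62.4% in EC-SAL in chondrocyte-like cells and 20% and 29.1% in vascular endothelial-like cells. Chondrocyte-like cells had 191, 195 and 222 CPM in EC-OVA and 208, 202 and 192 CPM in EC-SAL (adjusted p 0.934). In vascular endothelial-like cells Timp4 fell, to 35.4, 61.9 and 66.6 CPM in EC-OVA, against 104, 119 and 129.6 CPM in EC-SAL (log2 -1.13 ± 0.19, adjusted p 0.0037). The fall was seen in the capillary-type cluster led by Gpihbp1 and Fabp4, with 71.1, 106 and 114 CPM in EC-OVA and 161, 166 and 206 CPM in EC-SAL, and no library overlapped in either view. In vascular endothelial-like cells 4 of 13 members tested were called, beside 3.25% of all genes (1.34% higher, 1.91% lower), with Timp1 and Mmp14 higher and Timp4 and Adamts4 lower.

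Among the proteases, the gelatinase Mmp2 was the most abundant Mmp gene. Fibroblast-like cells had 991, 938 and 1072 CPM in EC-OVA and 1024, 1052 and 1025 CPM in EC-SAL, an overlap with no call (log2 -0.029 ± 0.062, adjusted p 0.85). Tenocyte-like cells had 887 ± 60 CPM in EC-OVA and 903 ± 16.9 CPM in EC-SAL. Keratinocyte-like cells had 67.6, 67.8 and 66.4 CPM in EC-OVA and 85.3, 86.4 and 80.8 CPM in EC-SAL, where Mmp2 fell (log2 -0.32 ± 0.06, adjusted p 0.018). Fibroblast-like minus keratinocyte-like gave a log2 difference of 0.28 ± 0.07 (adjusted p 0.0067), whose call was lost without EC-OVA library 3 or EC-SAL library 1 (adjusted p up to 0.0565). The keratinocyte call was lost without EC-OVA library 1 or any 1 EC-SAL library (adjusted p up to 0.0853), with the same mix of clusters (log2 -0.20, adjusted p 0.298) and at resolution 0.6 (0.0607).

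Of the membrane-held proteases, Mmp14 was called higher in 3 classes and Mmp23 in fibroblast-like cells. Mmp14, a collagenase at the cell surface that activates pro-Mmp2, lies on chromosome 14 (54431612 to 54445364, plus strand). In vascular endothelial-like cells it had 70.8, 66.8 and 72.9 CPM in EC-OVA and 37.8, 42.0 and 44.0 CPM in EC-SAL (log2 0.74 ± 0.14, adjusted p 0.0076). In macrophage- and monocyte-like cells it had 73.9, 58.9 and 68.1 CPM in EC-OVA and 23.7, 27.1 and 34.7 CPM in EC-SAL, on 93 and 24 UMIs (log2 1.20 ± 0.28, adjusted p 0.011). In fibroblast-like cells, with by far the most Mmp14 UMIs, the difference was small: 359.6, 351 and 360.4 CPM in EC-OVA and 322, 296 and 311 CPM in EC-SAL (log2 0.23 ± 0.06, adjusted p 0.035). No library overlapped in the 3 classes. The fibroblast call was lost whichever library was left out (adjusted p 0.0691 to 0.113), in DESeq2 (0.191) and with the same mix of clusters (0.167), the vascular call without EC-SAL library 1 (0.0536) and in DESeq2 (0.11), and the macrophage call without EC-SAL library 1 or 2 (up to 0.0786) and in DESeq2 (0.178).

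Mmp23, a membrane-anchored protease released by furin-type cleavage, was read mainly from fibroblasts (chromosome 4, 155650655 to 155653384, minus strand). It had 295, 246 and 263 CPM in EC-OVA libraries and 216, 213 and 211 CPM in EC-SAL libraries in fibroblast-like cells. All EC-OVA values were higher, with a log2 fold change of 0.35 ± 0.07 (adjusted p 0.0080), and the call held whichever library was left out (adjusted p 0.0053 to 0.0449). Mmp11, stromelysin-3, overlapped between groups in fibroblasts, with 63.6, 53.6 and 56.6 CPM in EC-OVA and 52.4, 44.8 and 55.9 CPM in EC-SAL (adjusted p 0.204). Its highest fibroblast cluster was that of Coch, Tnmd and Lrrc15, at 107 ± 11.1 CPM in EC-OVA and 94.6 ± 10.1 CPM in EC-SAL.

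In pericyte- and smooth muscle-like cells Mmp11 had 43.0, 47.8 and 39.7 CPM in EC-OVA and 23.6, 3.01 and 15.5 CPM in EC-SAL, on 75 and 17 UMIs (log2 1.51 ± 0.39, adjusted p 0.0299). It was 1 of 3 called of 14 members tested there, beside 3.55% of all genes. The summed level of the 10 fibroblast markers in this class was 4469.8 to 5198 CPM in EC-OVA and 2529 to 3463 CPM in EC-SAL. Of these markers 6 of 10 were higher in every EC-OVA library, beside 20.7% of all genes tested without overlap in either direction. The part of fibroblast RNA in the Timp1 and Mmp11 values of this class was not tested. The Mmp11 call was lost without EC-OVA library 2 or 3 or EC-SAL library 2 or 3 (adjusted p 0.0216 to 0.165), in DESeq2 (0.289) and with doublets kept (0.0605).

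**Figure D3:**
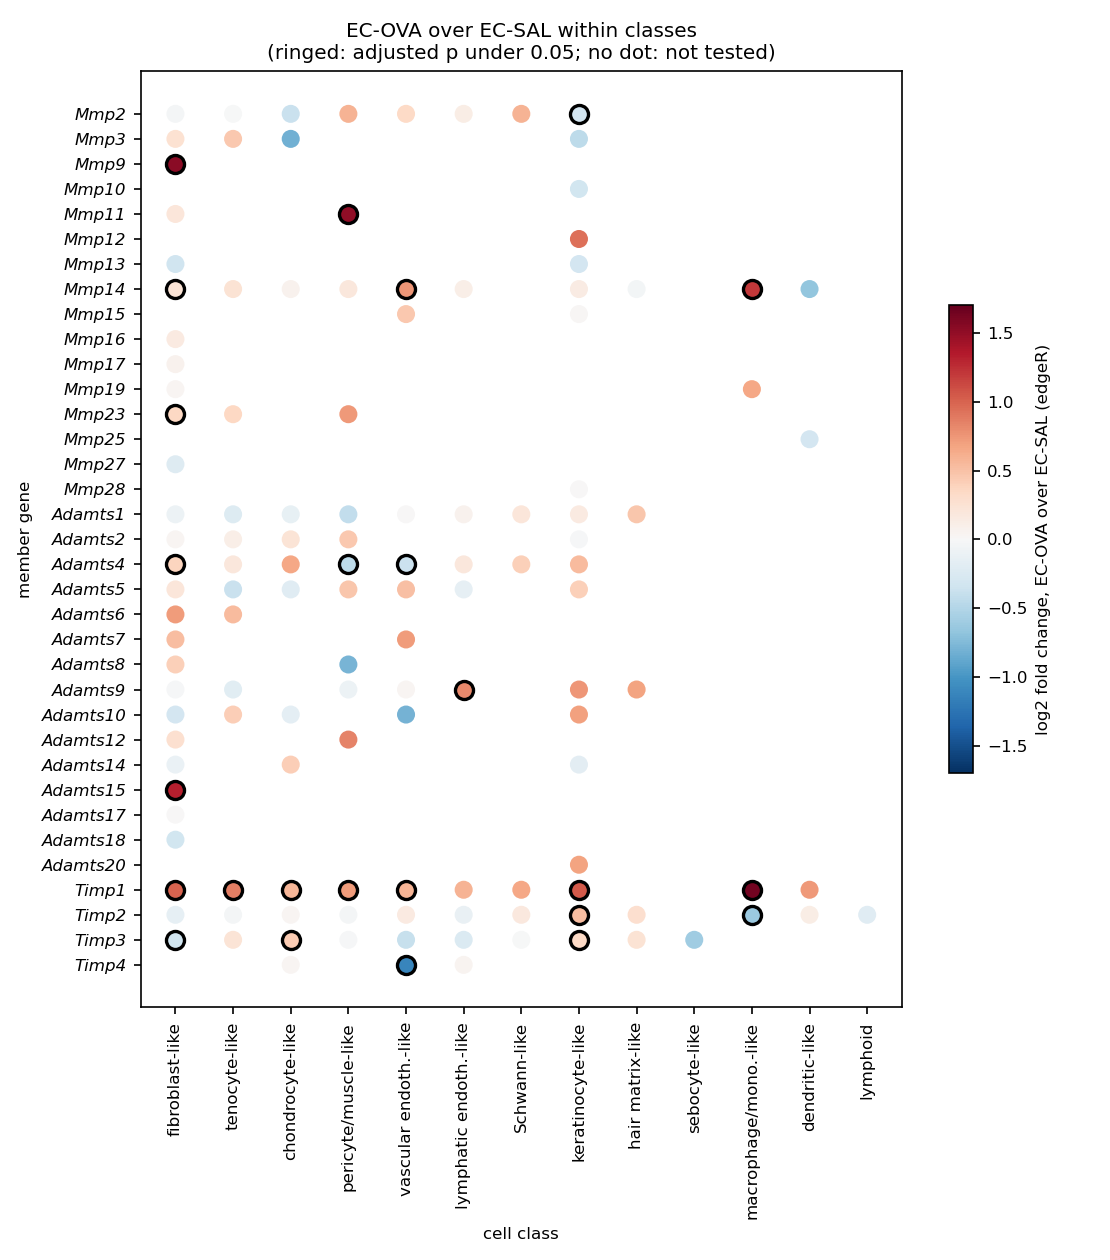
Log2 fold change of EC-OVA over EC-SAL for each tested member (rows) in each class (columns), with colour for size and direction and a ring for an adjusted p under 0.05 in edgeR's test. The Timp1 row has rings in 7 classes, all higher, while Adamts4 is ringed higher in fibroblast-like cells and lower in vascular endothelial-like and pericyte- and smooth muscle-like cells.

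The stromelysins Mmp3 and Mmp10 and the collagenase Mmp13, whose upstream windows are printed above, came from epidermis and, for Mmp3, fibroblasts. Mmp3 had 460.2, 427 and 409.7 CPM in EC-OVA and 341, 445 and 315 CPM in EC-SAL in fibroblast-like cells (log2 0.25 ± 0.12, adjusted p 0.237). In keratinocyte-like cells it had 229.9, 174 and 155 CPM in EC-OVA and 269.6, 216 and 277 CPM in EC-SAL (log2 -0.44 ± 0.13, adjusted p 0.106). The groups overlapped in both classes and neither was called, but the difference between the 2 effects was, at 0.71 ± 0.12 (adjusted p 9.19e-05), whichever library was left out. With the same mix of clusters in both groups that difference was 0.039 and not called. Fibroblast-like cells held 64.6% of Mmp3 UMIs in EC-OVA and 29.8% in EC-SAL.

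Mmp13 was almost all keratinocyte RNA, with 96.3% of its UMIs in EC-OVA and 97.7% in EC-SAL in keratinocyte-like cells. It had 93.7, 79.6 and 73.7 CPM in EC-OVA, against 102, 89.0 and 115 CPM in EC-SAL (log2 -0.31 ± 0.11, adjusted p 0.156). Mmp10 had 12.2, 22.7 and 20.5 CPM in EC-OVA and 27.1, 17.9 and 24.2 CPM in EC-SAL (log2 -0.33 ± 0.22, adjusted p 0.47). Both pairs overlapped. In fibroblast-like cells Mmp10 had 35 UMIs in EC-OVA and 4 in EC-SAL, and the difference between its effects in the 2 classes was 2.81 ± 0.68 (adjusted p 0.0059), lost without EC-SAL library 3 (adjusted p 0.0557), with the same mix of clusters (log2 2.22, adjusted p 0.0815) and with doublets kept (0.101).

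The 3 genes shared their keratinocyte clusters. In the cluster led by Krt5 and Krt14, basal keratins, Mmp3 had 759 ± 208 CPM in EC-OVA and 636 ± 97.3 CPM in EC-SAL, Mmp13 237 ± 79.1 and 246 ± 44.2 CPM, and Mmp10 53.9 ± 9.31 and 55.2 ± 9.67 CPM. In the cluster led by Clca3a2 and Krt1, Mmp3 had 324 ± 11.3 CPM in EC-OVA and 464 ± 24.5 CPM in EC-SAL, Mmp13 250.2 ± 94.4 and 148 ± 54.5 CPM, and Mmp10 64.1 ± 59.2 and 42.5 ± 22.4 CPM. In the clusters led by Krt17 and Lhx2, Akr1c18, or Krt79 and Defb6, the mean of each of the 3 genes stayed under 10 CPM in both groups. Levels in the largest keratinocyte cluster, led by Krt1 and Serpinb3b (2258 cells), are not given here. The Krt5 cluster held 502 cells in EC-OVA and 1744 in EC-SAL, so the class levels of these genes rest on a cluster that takes a different share of keratinocytes in each group.

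**Figure D4:**
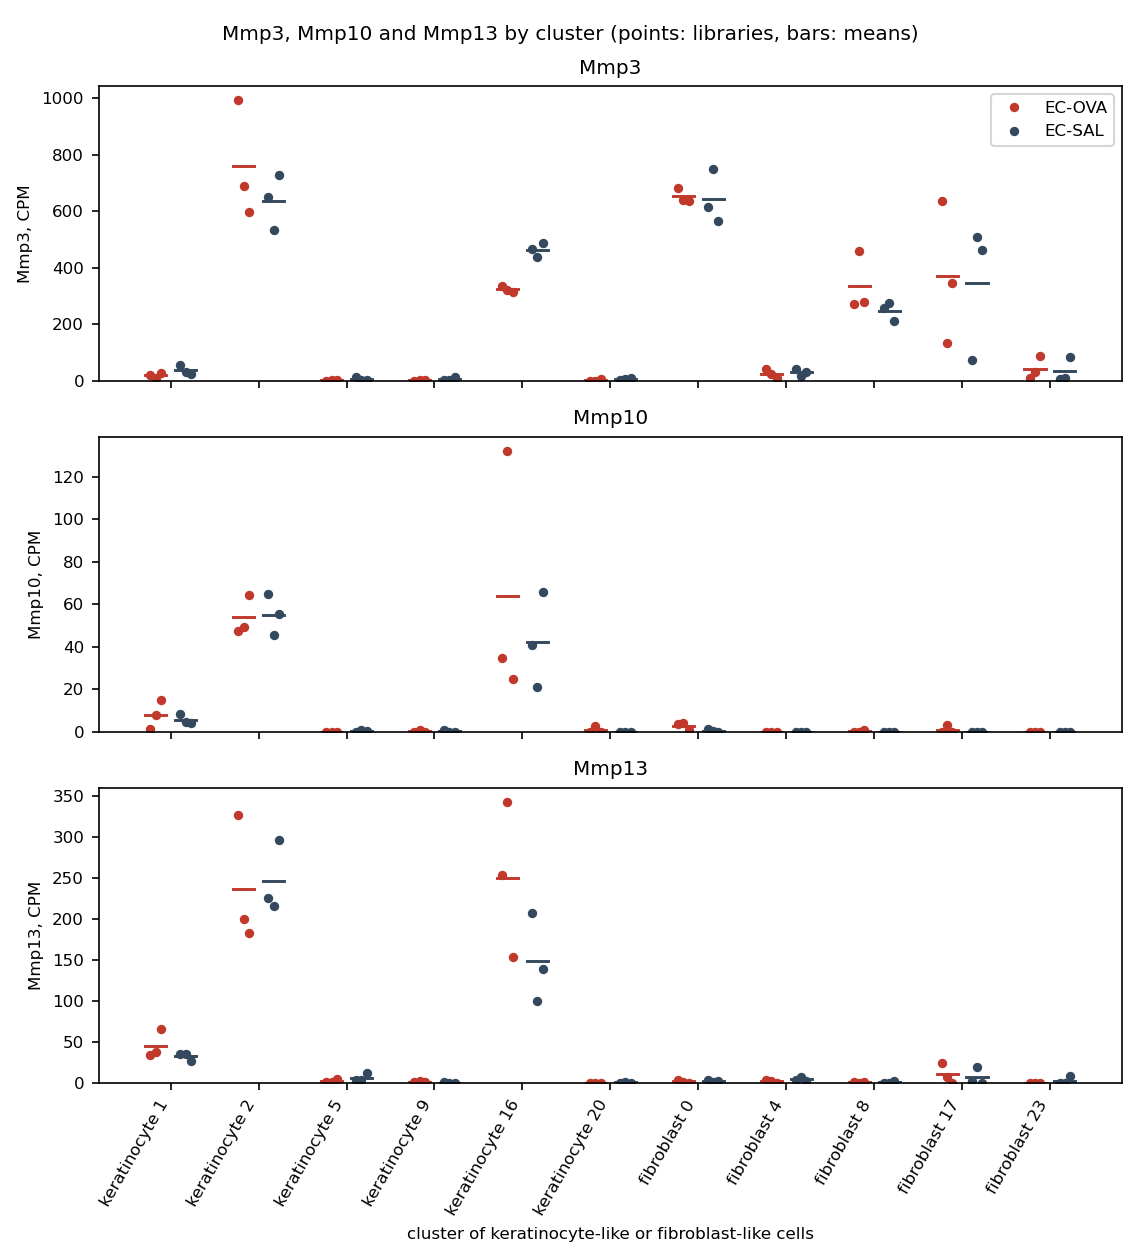
Level of Mmp3, Mmp10 and Mmp13 in CPM on a linear axis from 0, 1 point per library, in keratinocyte-like and fibroblast-like clusters, with EC-OVA left of EC-SAL. The Krt5 and Krt14 cluster holds Mmp3 at means of 759 CPM in EC-OVA and 636 CPM in EC-SAL, and the points of the 2 groups overlap there for all 3 genes.

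Over all kept cells, which join changes within cells to the mix of cells, Mmp13 fell to 33.5, 25.2 and 24.1 CPM in EC-OVA, against 57.4, 49.2 and 65.4 CPM in EC-SAL (log2 -1.11 ± 0.14, adjusted p 0.0004). Mmp10 fell with it (6.46 ± 1.42 CPM in EC-OVA, 12.8 ± 2.70 CPM in EC-SAL, log2 -1.03 ± 0.20, adjusted p 0.0036). They were the 2 members called lower of 24 called among 36 tested, beside 44.8% of all genes (22.5% higher, 22.3% lower). The other 22 were higher: Timp1 (log2 1.55 ± 0.06), Mmp9, Adamts15, Adamts7, Adamts12, Mmp23, Mmp12, Adamts6, Mmp11, Mmp19, Adamts9, Mmp25, Adamts2, Mmp14, Mmp16, Adamts8, Adamts4, Adamts5, Timp2, Adamts17, Mmp2 and Timp3 (log2 2.53 for Mmp9 down to 0.31 for Timp3). The median over the members was 0.56 and over all genes -0.0024. In a sum over a suspension, fewer cells of a type and less RNA per cell cannot be told apart. With the same mix of clusters in both groups 5 members were called, Timp1 (log2 0.90), Adamts15 (1.31), Adamts7 (0.90), Mmp23 (0.45) and Mmp14 (0.27), and Mmp13 was at 0.10. Without EC-OVA library 2, in which 1 cell held 152 Mmp9 UMIs, the log2 fold change of Mmp9 was 1.65 (adjusted p 0.0006). Single libraries also decided the calls of Adamts17 (EC-OVA library 2 or 3, EC-SAL library 2 or 3, adjusted p up to 0.12), Adamts6 (EC-OVA library 2, EC-SAL library 2, up to 0.0576) and Adamts8 (EC-OVA library 1, EC-SAL library 1 or 2, up to 0.0576).

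Mmp9, the gelatinase of neutrophils and other leukocytes (chromosome 2, 164940780 to 164955850), was rare and uneven. In macrophage- and monocyte-like cells it had 9, 153 and 14 UMIs in EC-OVA libraries 1 to 3, against 0, 1 and 1 UMIs in EC-SAL libraries, and 152 of the 153 UMIs of EC-OVA library 2 lay in 1 cell. In neutrophil-like cells of EC-OVA it reached 1068, 872 and 917 CPM on 13, 10 and 21 UMIs, a higher level than in any class ranked above. There 30 of 62 cells in EC-OVA had an Mmp9 UMI (48.4%, exact 95% interval 35.5 to 61.4%, counting error only), and 3 neutrophil-like cells were found in EC-SAL. In fibroblast-like cells it had 19, 18 and 15 UMIs in EC-OVA and 3, 7 and 2 in EC-SAL (2.50 ± 0.365 and 0.878 ± 0.621 CPM, log2 1.53 ± 0.42, adjusted p 0.048). The summed level of 8 neutrophil markers in fibroblast-like cells was 5.96 to 24.1 CPM in EC-OVA and 6.82 to 12 CPM in EC-SAL, with Retnlg at 0, and its part was not tested. The fibroblast call was lost without any 1 EC-OVA library, EC-SAL library 1 or EC-SAL library 3 (adjusted p 0.0262 to 0.209), in DESeq2 (0.29), with the replicate block (0.0651), the same mix of clusters (0.0732), resolution 0.6 (0.0644), members among the variable genes (0.0584) and stricter cells (0.0504).

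Mmp12, the macrophage elastase, was also carried by few cells. Among the ranked classes its mean level was highest in macrophage- and monocyte-like cells (26.1 CPM in EC-OVA, 34.6 CPM in EC-SAL), on 37 and 30 UMIs. Keratinocyte-like cells held more of its UMIs, 65 in 25 of 2397 cells in EC-OVA and 68 in 32 of 5301 cells in EC-SAL. Macrophage- and monocyte-like cells had 8, 26 and 3 UMIs in EC-OVA and 5, 0 and 25 in EC-SAL, of which 15 of the 26 in EC-OVA library 2 and 24 of the 25 in EC-SAL library 3 lay in 1 cell each. Over all kept cells its rise (log2 1.03 ± 0.29, adjusted p 0.019) lost its call without EC-OVA library 2, EC-OVA library 3 or EC-SAL library 2 (adjusted p up to 0.0583). Mmp19, highest in macrophage- and monocyte-like cells, had 114, 147 and 143 CPM in EC-OVA and 88.1, 61.9 and 101 CPM in EC-SAL. The groups did not overlap, as held for 26.1% of all genes tested in this class, and Mmp19 was not called (adjusted p 0.0709, edgeR). Mmp8, the neutrophil collagenase, had 5 UMIs in neutrophil-like cells in EC-OVA and 0 in EC-SAL, where 3 cells were present.

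A pair of further Mmp genes reached 20 CPM in a class. Mmp25, a leukocyte membrane protease, had 61.5, 56.0 and 80.2 CPM in EC-OVA and 42.0, 109 and 84.4 CPM in EC-SAL in dendritic-like cells, which overlap (adjusted p 0.539). These levels rest on 117 UMIs in EC-OVA and 56 in EC-SAL, from sums of 190387 to 642738 UMIs per library. The unnamed cells, left out of the ranking, held 51 Mmp25 UMIs in EC-OVA and 45 in EC-SAL. Their sums were smaller, at 106128 to 217300 UMIs per library. Mmp15, a membrane protease, had 45.6, 19.5 and 20.6 CPM in EC-OVA and 51.4, 57.4 and 39.1 CPM in EC-SAL in Schwann-like cells, on 14 and 31 UMIs, and was not tested there. No member was called in Schwann-like, dendritic-like, hair matrix-like, sebocyte-like or lymphoid cells, by edgeR or by DESeq2. Of the members tested in them, 1 of 6, 1 of 4, 2 of 5, 0 of 1 and 0 of 1 had an unadjusted p under 0.05, beside called shares of 0.518%, 11.5%, 0.0272%, 0.621% and 1.7% of all genes in the same order of classes.

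Of the ADAMTS proteases, Adamts4, an aggrecanase that also cuts versican, changed in opposite directions between classes (chromosome 1, 171250421 to 171260637, plus strand). In fibroblast-like cells it had 261, 250.2 and 267 CPM in EC-OVA and 192, 205 and 208 CPM in EC-SAL, and it rose (log2 0.38 ± 0.07, adjusted p 0.0041). In pericyte- and smooth muscle-like cells, where it was the highest Adamts gene, it had 2112, 1846 and 2034 CPM in EC-OVA and 2783, 2707 and 2508 CPM in EC-SAL, and it fell (log2 -0.45 ± 0.10, adjusted p 0.0067). In vascular endothelial-like cells it had 1677, 1406 and 1574 CPM in EC-OVA and 1933, 1946 and 1994 CPM in EC-SAL, and it also fell (log2 -0.36 ± 0.08, adjusted p 0.027). No library overlapped in the 3 classes.

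The difference itself was called. Fibroblast-like minus vascular endothelial-like gave a log2 difference of 0.73 ± 0.07 (adjusted p 3.79e-10), and fibroblast-like minus pericyte- and smooth muscle-like gave 0.83 ± 0.09 (adjusted p 4.90e-11). Both held whichever library was left out and with the same mix of clusters (0.75 and 0.78). In these 4 tests of a difference, 6 of 33 members were called for keratinocytes, 5 of 26 for macrophages, 4 of 27 for vascular cells and 1 of 26 for pericytes, beside 8.28%, 3.14%, 3.13% and 1.51% of all genes in that order. Within vessels, the cluster led by Selp and Ackr1, a venule profile, had 1936 ± 189 CPM of Adamts4 in EC-OVA and 2814 ± 149 CPM in EC-SAL, and the Gpihbp1 cluster 1204 ± 68.4 and 1456 ± 76.6 CPM. The dissociation genes summed to 13639 to 15401 CPM in EC-OVA and 15609.7 to 18587 CPM in EC-SAL in vascular cells, and to 13505 to 16413 CPM in EC-OVA and 17230.2 to 18627 CPM in EC-SAL in pericyte- and smooth muscle-like cells. The part of these genes in the Adamts4 changes was not tested. The class call in vessels was lost without EC-OVA library 3 or any 1 EC-SAL library (adjusted p 0.0342 to 0.101), whereas those in fibroblasts and pericytes held.

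**Figure D5:**
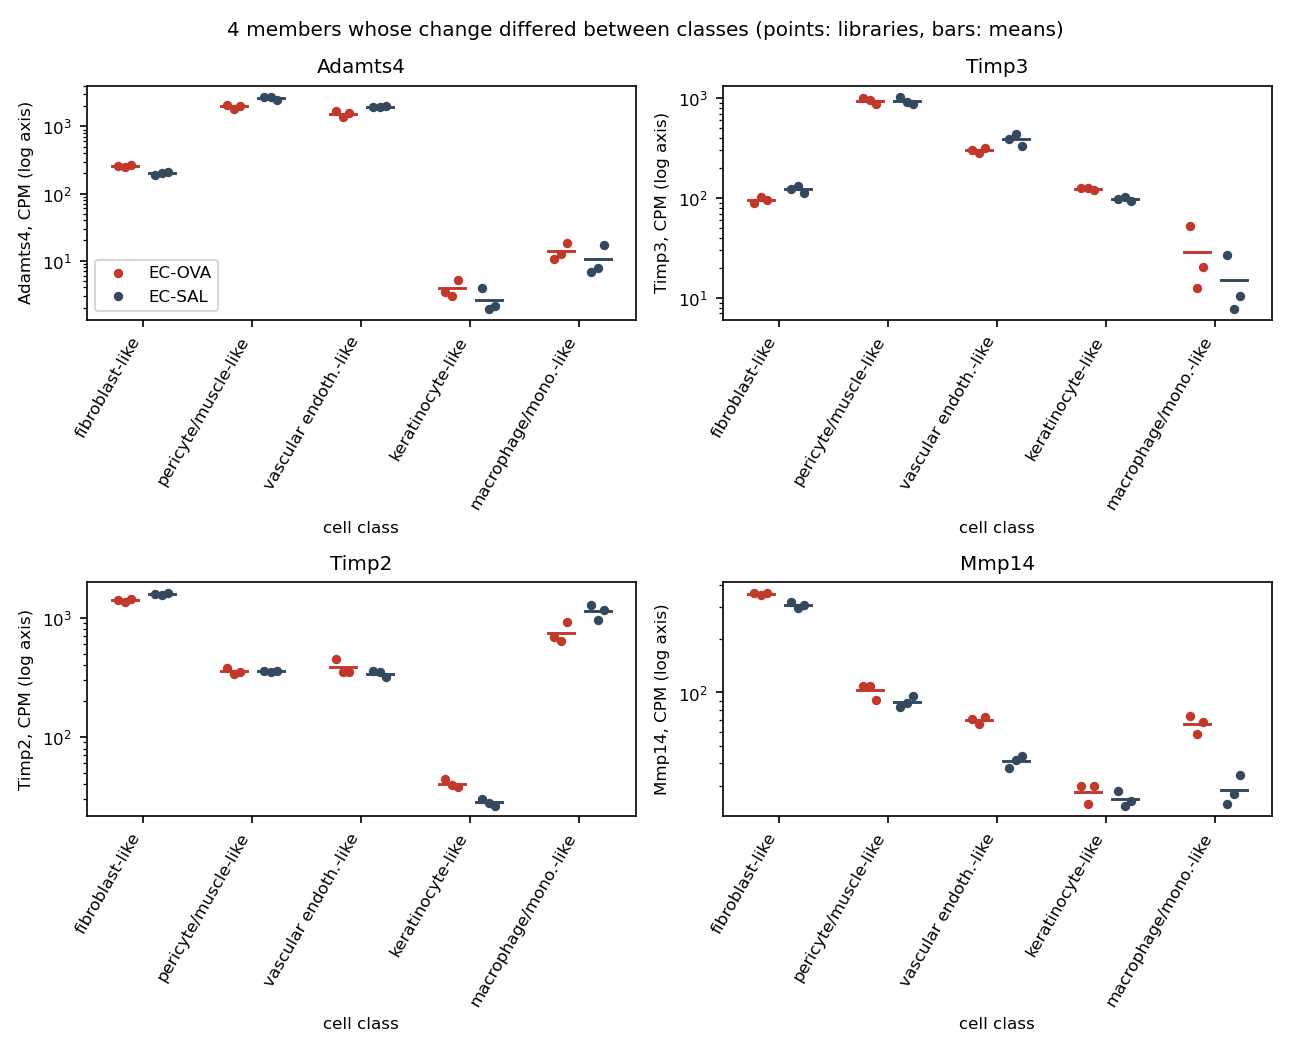
Level of Adamts4, Timp3, Timp2 and Mmp14 in CPM, 1 point per library, in 5 classes with EC-OVA left of EC-SAL. Adamts4 lies higher in EC-OVA in fibroblast-like cells (means of 259 and 202 CPM) and lower in EC-OVA in pericyte- and smooth muscle-like cells (1997 and 2666 CPM).

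Adamts15, another protease of versican and aggrecan, had the largest log2 fold change among well-counted Adamts genes in fibroblasts. It had 78, 92 and 89 UMIs in EC-OVA and 29, 18 and 23 in EC-SAL, or 12.4 ± 0.554 CPM in EC-OVA and 5.01 ± 0.806 CPM in EC-SAL (log2 1.32 ± 0.17, adjusted p 0.00049). The groups did not overlap, and the call held whichever library was left out (adjusted p 0.00089 to 0.0036) and with the same mix of clusters (log2 1.36). Adamts9, a protease of endothelium, overlapped between groups in vascular endothelial-like cells, with 580.0, 536 and 546 CPM in EC-OVA and 571, 536 and 492 CPM in EC-SAL (adjusted p 0.929). In lymphatic endothelial-like cells it was the 1 member called of 10 tested, beside 1.16% of all genes, with 133, 144 and 97.5 CPM in EC-OVA and 68.2, 71.4 and 70.3 CPM in EC-SAL (log2 0.82 ± 0.19, adjusted p 0.038). That call was kept only without EC-OVA library 3 (adjusted p 0.0131 to 0.186 over the 6 libraries left out in turn) and was lost in DESeq2 (0.349) and with the same mix of clusters (0.127).

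Adamts1, an aggrecanase and versicanase, had 723, 548 and 695 CPM in EC-OVA and 865, 909 and 802 CPM in EC-SAL in pericyte- and smooth muscle-like cells (log2 -0.42 ± 0.12, adjusted p 0.051), and it overlapped between groups in fibroblast-like cells (179.9 ± 20.1 and 195 ± 9.09 CPM). Its effect in fibroblasts minus that in keratinocytes (183 ± 16.0 CPM in EC-OVA, 166 ± 2.94 CPM in EC-SAL) was -0.25 ± 0.07 (adjusted p 0.017). That call was lost without EC-OVA library 2, EC-OVA library 3 or EC-SAL library 2 (adjusted p up to 0.124) and with the same mix of clusters (log2 -0.22, adjusted p 0.106). Adamts2, the procollagen N-proteinase, was a fibroblast gene, with 94.2% of its UMIs there in EC-OVA and 93.5% in EC-SAL. Its levels were 472, 459 and 472 CPM in EC-OVA and 449, 459.9 and 487 CPM in EC-SAL, an overlap with no call (log2 0.027 ± 0.064, adjusted p 0.861).

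Adamts5, an aggrecanase, had its highest level in tenocyte-like cells (121, 100.5 and 112 CPM in EC-OVA, 125, 174 and 136 CPM in EC-SAL) and was called neither there nor in fibroblast-like cells (74.0 ± 8.79 and 64.7 ± 2.94 CPM, adjusted p 0.171). In pericyte- and smooth muscle-like cells Adamts12 had 46.3, 44.4 and 39.7 CPM in EC-OVA and 28.3, 18.1 and 23.3 CPM in EC-SAL, and Adamts8 26.5, 23.9 and 18.9 CPM in EC-OVA and 40.1, 42.1 and 36.2 CPM in EC-SAL. Neither pair overlapped, as held for 20.7% of all genes tested in this class, and neither was called (adjusted p 0.138 and 0.176, edgeR). Adamts10 in tenocyte-like cells (22.0, 28.7 and 18.4 CPM in EC-OVA, 25.7, 14.5 and 11.8 CPM in EC-SAL) and Adamts14 in chondrocyte-like cells (22.3, 18.2 and 27.0 CPM in EC-OVA, 17.4, 17.9 and 15.9 CPM in EC-SAL) were the other Adamts genes with a mean over 20 CPM. The remaining members stayed under that level in every named class.

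Other genes of the pathway moved in part with the members in fibroblast-like cells. In this class 8.39% of all genes were called (4.98% higher, 3.41% lower), and the counts of the lists are read against that share. Of 17 tested substrates of these enzymes 6 rose and 1 fell, with a list median of 0.20 beside 0.0073 over all genes: elastin (Eln, log2 0.79, adjusted p 5.75e-05), thrombospondin Thbs1 (0.51, adjusted p 0.0024) and fibrillin Fbn1 (0.42, adjusted p 0.0062) rose, and the proteoglycan decorin (Dcn) fell (log2 -0.31, adjusted p 0.0035). Of 8 membrane ADAM proteases tested 2 rose, Adam12 (log2 1.18, adjusted p 0.00011) and Adam19 (0.91, adjusted p 0.016), with a median of 0.24. Of 12 activators 2 rose and 2 fell (median 0.12): the convertase Pcsk5 (0.46) and the plasminogen activator Plat (0.39) rose, and the kallikrein Klk8 (log2 -1.34) and the convertase Pcsk6 (log2 -0.53) fell.

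Of 11 other inhibitors 1 rose and 3 fell (median -0.081). Sfrp1, a secreted Wnt binder, rose (log2 0.93, adjusted p 0.00031), and Reck, a membrane inhibitor of metalloproteases (log2 -0.45, adjusted p 0.045), Spock2 (log2 -0.91, adjusted p 0.028) and the C1 inhibitor Serping1 (log2 -0.29, adjusted p 0.012) fell. Of 3 other procollagen-processing genes, the C-proteinase Bmp1 rose (log2 0.42) and its enhancer Pcolce2 fell (log2 -0.45), with a list median of -0.056. None of 5 ADAMTS-like genes (median -0.21), 5 clearance receptors (median -0.036) and 7 inducing cytokines (median 0.11) was called in edgeR or DESeq2, and 1, 1 and 3 of them in that order had an unadjusted p under 0.05. In fibroblasts the summed level of 15 keratinocyte markers was 497 to 511 CPM in EC-OVA and 1191 to 1438 CPM in EC-SAL. Of these markers 13 of 15 were lower in every EC-OVA library, beside 24.4% of all genes tested without overlap in either direction. The kallikrein Klk8 is also an epidermal gene, and the part of keratinocyte RNA was not tested.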

How the data were processed

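The authors deposited, for each of 6 libraries, UMI counts per gene and barcode, raw whole numbers with Cell Ranger 3.1.0 named per the file headers. STAR and mm10 are named in the submitters' processing notes; the annotation release used for counting is not given in the sources used here. Reads of Cep295nl, which overlaps Timp2 on the same strand, may be shared with it.

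Kept barcodes had at least 300 genes and at most 15% mitochondrial UMIs, which removed 29.9 to 32.2% of barcodes in EC-OVA and 32.8 to 35.9% in EC-SAL. Scrublet's own threshold marked 0.026 to 0.304% of cells, so the highest scores at 0.8% per 1000 barcodes were left out instead. Libraries shared 33 to 87 barcodes per pair, near what chance draws give. Cells were clustered (scanpy 1.11.5, 2000 variable genes without the members, 40 components, Leiden resolution 1.0) and named from marker lists; the tenocyte-like class was added after the clusters were seen. A class name describes a marker profile.

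Each class with 10 or more cells in all 6 libraries gave 1 sum of UMIs per library (258507 to 475630 UMIs per library in macrophage- and monocyte-like, 4325357 to 7481508 in fibroblast-like cells; lymphoid sums of 92794 to 213200 limit what can be seen). The main test was edgeR 4.0.16 (quasi-likelihood, Benjamini-Hochberg, 0.05) after filterByExpr and TMM scaling. Differences between classes were tested as class by treatment with library as a block. Fits were tested on simulated counts of 1 fixed spread, with 200 genes changed by a log2 of 1. Of these, 77.5% were recovered in fibroblast-like, 56% in macrophage- and monocyte-like and 48% in lymphoid sums. The difference of fibroblast-like minus vascular endothelial-like recovered 22%, so a difference that was not called may still be present. Alternatives were DESeq2 1.42.0, RLE scaling, no or a stricter filter, doublets kept, stricter cells, resolution 0.6, members among the variable genes, the replicate block, the same mix of clusters in both groups, and each library left out. The replicate numbers did not pair libraries (correlations of -0.055 to 0.144 between equal numbers), so the block is an alternative. The same mix also altered results in classes made of 1 cluster, where the mix cannot differ. Lymphatic endothelial-like cells are such a class, and Adamts9 lost its call there at log2 0.75 (adjusted p 0.127, edgeR). What a call lost under this setting owes to the mix of clusters was not tested.

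The members, gene lists, tests and alternatives were chosen with earlier results of these data known. Most members with a mean of at least 20 CPM in a named class are given library by library, as CPM or UMIs, in at least 1 such class. Their values in further classes are given per library, as means or not at all. Every called member is named, and 15 members are described whatever their values: Timp1 to Timp4, Mmp2, Mmp3, Mmp9, Mmp11 to Mmp14, Adamts1, Adamts2, Adamts4 and Adamts5. Of other lists at most 4 called genes are named. Sequences are RefSeq's (GRCm38.p6). Intervals are exact Clopper-Pearson.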

Additional observations from a re-analysis of the deposited data

Results flagged for a closer look

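Several members differed between classes in their change after OVA, by the class by treatment term in edgeR (adjusted p under 0.05). Fibroblast-like minus keratinocyte-like, the log2 difference was 0.28 for Mmp2, 0.71 for Mmp3, 2.81 for Mmp10, -0.69 for Timp3, -0.69 for Timp2 and -0.25 for Adamts1. Timp3 fell in fibroblast-like cells (95.6 CPM in EC-OVA, 122 CPM in EC-SAL) and was higher in keratinocyte-like cells (124 CPM in EC-OVA, 98.3 CPM in EC-SAL). None of the 6 was called with the same mix of clusters in both groups.

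Fibroblast-like minus macrophage- and monocyte-like, it was -3.86 for Mmp9, 4.94 for Mmp12, 0.43 for Timp2, -1.03 for Mmp14 and -0.67 for Timp1. The Mmp9 and Mmp12 values rest on single cells: 152 Mmp9 UMIs lay in 1 cell of EC-OVA library 2 and 24 Mmp12 UMIs in 1 cell of EC-SAL library 3, and fibroblast-like cells had 20 Mmp12 UMIs in 6 cells in EC-OVA and 0 in EC-SAL. The Mmp9 call was lost without EC-OVA library 2, EC-SAL library 1 or 2 (log2 -4.69 to -1.90), the Mmp12 call without EC-OVA library 1, EC-SAL library 1 or 3 (log2 3.18 to 5.56), the Timp2 call without EC-OVA library 1 or 2, EC-SAL library 1 or 3 (log2 0.31 to 0.58) and the Mmp14 call without any 1 library but EC-OVA library 2 (log2 -1.22 to -0.91). None of the 5 was called with the same mix of clusters; the Mmp12 call was also lost with doublets kept (0.121), the Timp2 call with stricter cells (0.0733) and the Mmp14 call with RLE scaling (0.0586), no filter (0.10) and stricter cells (0.161).

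Fibroblast-like minus vascular endothelial-like, it was 0.73 for Adamts4, -0.32 for Timp2, -0.54 for Mmp14 and 0.41 for Timp1. The Timp2 call was lost without EC-OVA library 1 or EC-SAL library 3 (adjusted p up to 0.372), with the same mix of clusters (log2 -0.15, adjusted p 0.538) and with doublets kept (0.0877). The Mmp14 call was lost whichever library was left out (adjusted p 0.0672 to 0.283), with the same mix of clusters (0.0760), doublets kept (log2 -0.30, adjusted p 0.307), RLE scaling (0.0514), no filter (0.0511) and stricter cells (0.0509). Fibroblast-like minus pericyte- and smooth muscle-like, it was 0.83 for Adamts4.

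In classes too small in some library to be compared, Timp2 had 13 UMIs in 62 neutrophil-like cells in EC-OVA and 0 in the 3 cells in EC-SAL. Timp3 had 53 UMIs in 49 melanocyte-like cells in EC-OVA (176 ± 48.9 CPM) and 47 UMIs in 96 cells in EC-SAL (75.9 ± 18.3 CPM).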

How the results depend on the processing

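Called members are counted here; the causes of differences between alternatives were not tested. In fibroblast-like cells 7 members were called as reported, 11 without a filter, 4 in DESeq2 and 4 with the same mix of clusters. In keratinocyte-like cells the same mix gave 0 and resolution 0.6 gave 1 (4 as reported), in lymphatic endothelial-like cells DESeq2 and the same mix gave 0 (1 as reported), and in macrophage- and monocyte-like cells no filter gave 5 and the same mix 1 (3 as reported). In dendritic-like cells no filter and members among the variable genes gave 1 and resolution 0.6 gave 3, against 0. Over all kept cells the same mix gave 5, against 24. For differences between classes, the same mix gave 0 for keratinocytes, 0 for macrophages and 2 for vascular cells; for macrophages doublets kept gave 3 and stricter cells 2, and for pericytes no filter, a stricter filter, doublets kept and stricter cells gave 2, against 1.

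With 1 library left out, the counts ranged from 4 to 6 in fibroblast-like (4 without EC-OVA library 1 or EC-SAL library 1), 2 to 4 in keratinocyte-like (2 without EC-SAL library 1 or 3), 0 to 3 in chondrocyte-like (0 without EC-SAL library 1, 1 without EC-SAL library 2 or 3), 2 to 4 in vascular endothelial-like (2 without EC-OVA library 3, EC-SAL library 1 or 2), 0 to 1 in lymphatic endothelial-like, 2 to 4 in pericyte- and smooth muscle-like, 1 to 4 in macrophage- and monocyte-like cells (1 without EC-SAL library 1), 3 to 7 over single fibroblast clusters (6 as reported, 3 without EC-SAL library 3) and 20 to 24 over all kept cells. For differences between classes they ranged from 5 to 6 for keratinocytes, 1 to 4 for macrophages, 1 to 3 for vascular cells and 1 to 3 for pericytes.

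Directions turned for Timp3 in keratinocyte-like cells (-0.19) and the Timp2 difference to macrophages (-0.042) with the same mix; for Adamts17 (-0.079), Adamts4 (-0.0036), Mmp13 (0.10), Mmp25 (-0.63) and Timp2 (-0.010) over all kept cells with the same mix; and, among values not called, in fibroblast-like cells for Adamts2 with the same mix (-0.037) and, with 1 library left out, for Adamts2 (-0.026 to 0.059, turned without EC-SAL library 1), Mmp13 (-1.24 to 0.17, turned without EC-OVA library 3) and Mmp2 (-0.065 to 0.0018, turned without EC-SAL library 2). The share of member UMIs in fibroblast-like cells was 58.8% in EC-OVA and 43.0% in EC-SAL with doublets kept. It was 58.6% and 43.1% with members among the variable genes, and 53.1% and 37.7% at resolution 0.6. At that resolution the cluster led by Coch, Tnmd and Lrrc15 (1348 cells) was unnamed and so outside the fibroblast-like class. Krt17 and Lhx2 were then top genes of a hair matrix-like cluster (1776 cells). Fibroblast-like and keratinocyte-like values at resolution 0.6 thus belong to classes of a different makeup. With the replicate block 6 members were called in fibroblast-like cells and 25 over all kept cells; the equal numbers did not pair libraries. Single values were followed for members called in the main test and, in fibroblast-like cells, for members described whatever their values. Of these values, 918 kept their direction and their side of the threshold, 170 lost their call, 2 gained one and 11 turned direction. Other values that were not called were left out, so this count says little about gained calls. Classes of few UMIs, such as lymphoid cells, limit what the tests can detect.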

Other observations

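A myeloid cluster led by Ccl17, Ear2 and Mgl2, which had too few raised markers to be named, held the highest mean Mmp12 level of the clusters in EC-OVA, with 150.3, 209 and 508 CPM in EC-OVA libraries and 61.4, 92.5 and 138 CPM in EC-SAL libraries. In the unnamed cells Mmp12 had 14, 33 and 62 UMIs in EC-OVA and 10, 11 and 18 in EC-SAL, and 51 of the 62 in EC-OVA library 3 lay in 1 cell. Mmp12 overlaps Mmp1b of the opposite strand, which had 3 UMIs.

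All Mmp9 UMIs of dendritic-like cells lay in the cluster led by Cd207, the langerin gene, and H2-M2, with 13 UMIs in 19 cells in EC-OVA and 24 UMIs in 51 cells in EC-SAL; the other cluster led by Cd207, with Gpr141b and Xcr1, had 0 in 136 cells in EC-OVA and 0 in 35 in EC-SAL.

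In pericyte- and smooth muscle-like cells 9 of 15 tested substrates of the enzymes rose and none fell, where 3.55% of all genes were called, beside the fibroblast marker sums given above. In macrophage- and monocyte-like cells the membrane protease Adam8 rose (log2 1.36), and the protease activator Plau fell (log2 -1.13), as did the cysteine protease inhibitor Cst3 (log2 -0.63). In vascular endothelial-like cells the plasminogen activator Plau rose (log2 0.63). In keratinocyte-like cells the cytokine Il1b (log2 1.0) and the basement membrane collagen Col4a1 (log2 0.76) rose. The makeup of this class differed between the groups, and values of these genes with the same mix of clusters are not given. The part of free RNA in them was not tested.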
